A study of Mus musculus with 8 samples.

Results

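The genes described here are 36 transcripts of the G2 phase and of mitosis, chosen by symbol from 56859 genes in the deposited tables. None was chosen by a measured value, although earlier results of these data were known. All 36 were found by symbol and passed the filter on low counts in every comparison. They were divided by main role into 9 cyclins and kinases, 4 kinesins, 9 kinetochore and spindle checkpoint genes, 4 cytokinesis genes, 4 spindle assembly genes, 2 partners of the anaphase-promoting complex and 4 genes of chromosome structure and transcription. Bub1, Bub1b and Ttk are also kinases, Cenpe is also a kinesin, and Kif20a and Kif23 also act in cytokinesis.

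RNA was sequenced from wild-type BV2 cells, a mouse microglial line immortalized by a retrovirus that carries oncogenes, so that the cells divide without end in culture. All libraries carry the label of oxygen-glucose deprivation and reperfusion, which the protocol describes as 9 h in glucose-free medium at 1% O2 followed by a return to normal culture, and no library of untouched cells was analysed here. Controls were deprived alone, and the other cells were also given 10panx1, a peptide that blocks pannexin 1 channels, to learn which transcripts accompany a change in Src under that block. Each treatment had 3 libraries at 9 h and a single library at 6 h. The labels do not say from when 6 h and 9 h were counted, and they name no control peptide. The 10panx1 library at 6 h was placed by its title, because its treatment label does not name the peptide. Separate cultures are not stated for the replicates. The p-values therefore measure only the spread among these libraries, and that spread may be technical.

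Total counts ran from 18056693 to 23164860 per library. The mitochondrial share of counts was 1.428% and 1.515% in the libraries at 6 h, and 1.141% to 1.284% in those at 9 h. Of 13 microglia and macrophage markers, Cd68, Fcer1g, Tyrobp, Csf1r and Spi1 had median TPM values (a level per library that is scaled by gene length) from 135 to 1050. Ptprc, Itgam, Trem2, Cx3cr1 and Aif1 had medians of 67.9, 66.1, 21.8, 15.5 and 2.68 TPM. P2ry12 and Sall1 did not exceed 0.526 and 0.685 TPM, and Tmem119 did not exceed 1.67 TPM in any library. Control replicate 3 at 9 h was unlike the others. Its 5 hepatocyte markers summed to 299 TPM against at most 1.69 TPM in the other libraries, and its 5 fibroblast markers to 17.8 TPM. Of the 299 TPM, Hpx alone gave 265 TPM. Fgb, Serpinc1 and Alb reached 19.7, 8.76 and 5.39 TPM, and Apoa1 did not exceed 0.596 TPM. The part of that library in the results was examined by leaving it out. In bulk RNA, fewer cells in a phase of the cycle and less RNA per cell cannot be told apart.

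Cells build up cyclins A and B through S and G2 phase, and their partner Cdk1 then drives entry into mitosis. Aurora and polo kinases shape the spindle, the kinetochore holds each chromosome to it, and the checkpoint holds back the anaphase-promoting complex until all chromosomes are attached. Transcripts of this kind peak in G2 and mitosis under a shared control. Their promoters are known for the cell cycle genes homology region (CHR), bound by the MuvB core with B-Myb and FOXM1 or in the repressive DREAM complex, and for CCAAT boxes bound by NF-Y.

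Promoter stretches of 8 members are shown because the CHR and the CCAAT box are what most members share apart from the rule by which they were chosen. Plk1, Kif2c, Cenpe, Anln, Ube2c and Birc5 were taken by smallest p in the comparison of 9 h with 6 h. They were taken from the members with a CHR among those picked for levels by the rule given with the processing. Prc1 and Bub1 were added after their values were seen. Sequences are from RefSeq, build GRCm38.p6, read 5′ to 3′ on the gene's strand and ending 30 bases after the annotated start. Capitals mark the letters TTTGAA or TTTAAA of the CHR, or CCAAT, on either strand (TTCAAA and ATTGG on the other).
Plk1 (ENSMUSG00000030867, chr7:122159335-122159464, plus strand): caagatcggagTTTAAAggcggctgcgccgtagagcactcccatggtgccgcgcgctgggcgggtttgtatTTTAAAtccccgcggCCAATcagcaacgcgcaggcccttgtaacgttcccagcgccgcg
Kif2c (ENSMUSG00000028678, chr4:117178743-117178885, minus strand): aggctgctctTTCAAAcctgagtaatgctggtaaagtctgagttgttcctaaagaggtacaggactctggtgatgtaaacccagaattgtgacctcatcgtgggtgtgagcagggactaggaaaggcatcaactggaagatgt
Cenpe (ENSMUSG00000045328, chr3:135212463-135212592, plus strand): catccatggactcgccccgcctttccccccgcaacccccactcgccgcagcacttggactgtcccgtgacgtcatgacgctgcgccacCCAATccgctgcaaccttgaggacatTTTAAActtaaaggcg
Bub1 (ENSMUSG00000027379, chr2:127831830-127831959, minus strand): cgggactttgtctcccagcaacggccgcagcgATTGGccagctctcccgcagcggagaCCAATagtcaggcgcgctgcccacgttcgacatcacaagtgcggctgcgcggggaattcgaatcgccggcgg
Anln (ENSMUSG00000036777, chr9:22389177-22389306, minus strand): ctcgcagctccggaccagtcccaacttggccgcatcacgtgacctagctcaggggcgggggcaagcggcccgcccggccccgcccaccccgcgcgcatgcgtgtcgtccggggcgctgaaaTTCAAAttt
Prc1 (ENSMUSG00000038943, chr7:80294351-80294480, plus strand): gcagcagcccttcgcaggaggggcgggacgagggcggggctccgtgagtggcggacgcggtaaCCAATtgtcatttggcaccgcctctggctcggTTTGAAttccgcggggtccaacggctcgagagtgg
Ube2c (ENSMUSG00000001403, chr2:164769829-164769958, plus strand): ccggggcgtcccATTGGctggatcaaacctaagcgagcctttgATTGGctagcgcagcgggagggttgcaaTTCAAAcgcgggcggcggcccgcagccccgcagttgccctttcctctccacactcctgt
Birc5 (ENSMUSG00000017716, chr11:117849007-117849266, plus strand): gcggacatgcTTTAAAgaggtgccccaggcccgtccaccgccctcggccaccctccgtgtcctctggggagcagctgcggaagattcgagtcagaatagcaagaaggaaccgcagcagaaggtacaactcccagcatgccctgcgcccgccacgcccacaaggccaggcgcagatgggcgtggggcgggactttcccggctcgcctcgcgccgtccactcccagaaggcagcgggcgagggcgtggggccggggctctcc
Plk1 holds 2 CHR matches beside a CCAAT box in this stretch, and Prc1 holds 1 of each. Bub1 has 2 CCAAT boxes and no CHR letters in the window. A match to these letters is a description and does not show that a factor binds there.

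RefSeq promoters, running from 250 bases before to 50 bases after the start, were matched for 29 of the 36 members. The CHR letters were present in 25 of 29 members (86.2%), against 22.9% of the 9602 genes that were tested at 9 h and had a promoter, and 30.6% of 27025 genes of the table with a promoter. In 22 of the 25 members the nearest match began within 50 bases of the start. CCAAT letters were present in 75.9% of members against 43.4% of tested genes. They were nearly as common in other mitosis genes (72.7%), and were in 61.8% of G1/S and DNA replication genes. Both motifs were present in 72.4% of members against 9.40% of tested genes. Of other mitosis genes with a promoter 22 of 44 held both, and of G1/S and DNA replication genes 7 of 34. No CHR match overlapped a CCAAT match in a member's promoter. The E2F site GGCGGGAA (TTCCCGCC on the other strand), which is known from G1/S genes, was in 0 of 29 members, in 20.6% of 34 G1/S and DNA replication genes and in 4.84% of tested genes. The 4 members with a promoter but no CHR letters were Bub1, Mad2l1, Nuf2 and Nusap1. The promoters of Ccna2, Cdc25c, Aurkb, Pbk, Kif20a, Tpx2 and Foxm1 were not used here.

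**Figure D1:**
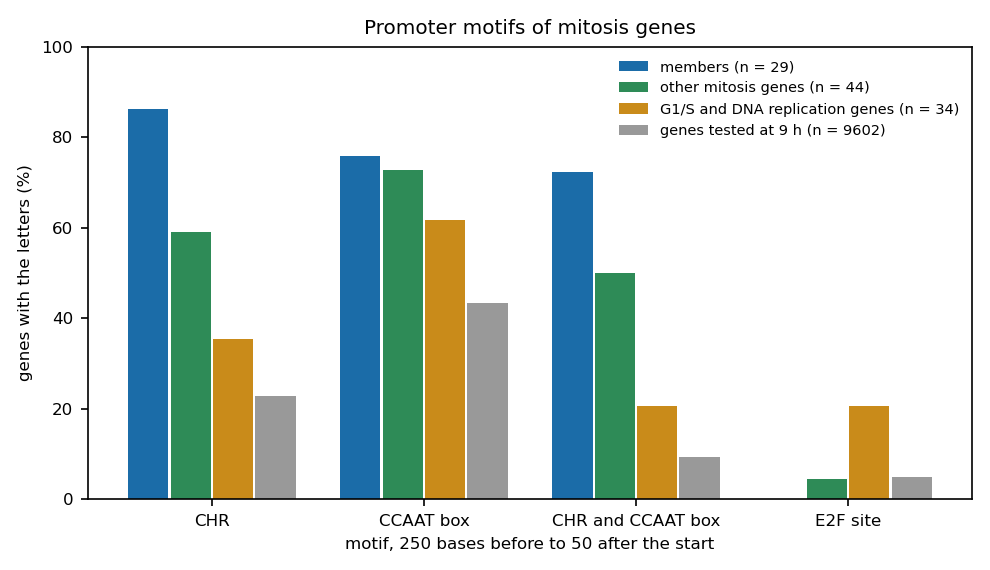
Share of genes (%) whose promoter holds the letters of each motif, for members, other mitosis genes, G1/S and DNA replication genes and all genes tested at 9 h. The CHR was in 86.2% of members, 59.1% of other mitosis genes, 35.3% of G1/S genes and 22.9% of tested genes. In the same order, CCAAT letters were in 75.9%, 72.7%, 61.8% and 43.4%.

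All 36 members were well expressed. Their summed level was 3716 and 3785 TPM at 6 h in control and 10panx1 libraries. Over the 6 libraries at 9 h it ran from 3070 to 3412 TPM. Their share of all counts was 0.5047% and 0.5095% at 6 h, and 0.4323% to 0.4915% at 9 h. On TMM-scaled counts per 1000000 counts (CPM), the sums of 4757 and 4879 at 6 h lay within the range at 9 h of 4425 to 4941, so the scale decides whether the sum differs between the times. Bub1, a checkpoint kinase at the kinetochore, had the highest mean level at 306.7 TPM, followed by Top2a, the topoisomerase that untangles sister chromatids, at 227.2 TPM and Cdc20, which activates the anaphase-promoting complex, at 202.8 TPM. Cdc25c, a phosphatase that activates Cdk1, was lowest at 16.5 TPM. Levels between genes are compared here only in TPM, and all changes below are on CPM scaled by the trimmed mean of M values (TMM).

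The first comparison, 10panx1 against control at 9 h, set 3 libraries against 3. Only Prc1, which bundles microtubules of the central spindle for cytokinesis, was called at an adjusted p under 0.05, and it was lower with 10panx1. No member was called higher. Of 13392 genes tested, 9.21% were called in either direction, 4.14% lower and 5.06% higher, so the members' 1 of 36 lies below that background.

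Prc1 measured 71.9, 63.1 and 62.6 CPM in control libraries and 58.2, 50.5 and 56.0 CPM in 10panx1 libraries. Every control library lay above every 10panx1 library. The means were 65.9 ± 5.23 and 54.9 ± 4.01 CPM (SD, n = 3 each), a log2 fold change of -0.26 (edgeR, SE 0.071, adjusted p = 0.0331). The call was lost when 10panx1 replicate 2 or 3 or control replicate 1 or 2 was left out, and its adjusted p ran up to 0.154 over the alternatives. Without the third control library Prc1 stayed called.

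Small differences below the threshold pointed mostly one way. The estimate was below 0 for 30 of 36 members, with a median log2 fold change of -0.07 against -0.003 over all tested genes, and with values from -0.26 for Prc1 to 0.11 for Bub1. In 10 members (27.8%) every 10panx1 library lay below every control library, against 15.0% of all tested genes. No member was separated the other way. Counted in either direction, separation was as common over all tested genes (29%) as in members (27.8%). The same library carried many of these values: 10panx1 replicate 2 was the lowest of the 6 libraries in 27 members, against 22.2% of all genes, and control replicate 1 was the highest in 19, against 21.9%. Without 10panx1 replicate 2 the median was -0.03, with 22 of 36 estimates below 0 and no call. Without control replicate 1 it was -0.05, with 26 below 0. The part of these single libraries in the shift beyond those values was not tested.

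Among cyclins and kinases, 8 of 9 estimates were below 0 and none was called, with a median log2 fold change of -0.09. Ccna2, cyclin A2, had 157, 149 and 147 CPM in controls and 146, 123 and 132 CPM with 10panx1, without overlap. Its log2 fold change of -0.18 had an adjusted p of 0.07 (edgeR). Pbk, a mitotic kinase, differed by -0.16 (edgeR, adjusted p = 0.0565) and Ccnb1, cyclin B1, by -0.09 (edgeR, adjusted p = 0.232), each also without overlap. Plk1, the polo kinase, measured 53.7, 49.2 and 47.4 CPM against 53.0, 44.8 and 49.1 CPM, a log2 fold change of -0.03 with a 95% interval from -0.19 to 0.13. Its groups overlapped. Cdc25c had the widest interval of all members, with levels of 14.5, 11.7 and 17.6 TPM with 10panx1 against 17.8, 16.2 and 17.5 TPM in controls, and a log2 fold change of -0.23 (edgeR, adjusted p = 0.27).

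The 4 kinesins all had estimates below 0, from -0.14 for Kif20a to -0.04 for Kif11, and none was called. Kif20a works in the central spindle and Kif11 pushes the spindle poles apart. Kinetochore and checkpoint genes ranged wider, with 6 of 9 below 0 and a median of -0.06. Mad2l1, which encodes the checkpoint protein Mad2, measured 70.7, 63.3 and 67.6 CPM in controls and 59.1, 58.1 and 58.7 CPM with 10panx1. The groups did not overlap, and its log2 fold change of -0.20 missed the threshold narrowly (edgeR, SE 0.059, adjusted p = 0.0507). Depending on the setting its adjusted p ran from 0.027 to 0.189. Cenpa, the histone H3 variant of the centromere, averaged 52.2 ± 1.94 CPM in controls and 45.1 ± 2.37 CPM with 10panx1 (SD, n = 3 each) without overlap, a log2 fold change of -0.21 (edgeR, adjusted p = 0.0593). Bub1 had the highest estimate at 0.11, with overlapping groups of 395 to 430 and 411 to 496 CPM (edgeR, adjusted p = 0.291).

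Cytokinesis genes other than Prc1 were not called. Anln, the actin and septin scaffold anillin, averaged 98.5 ± 3.03 CPM in controls and 98.1 ± 6.30 CPM with 10panx1 (SD, n = 3 each), with a 95% interval of the log2 fold change from -0.12 to 0.11. Ect2, which activates RhoA at the cell equator, had an estimate of 0.08. In spindle assembly, Nusap1, a microtubule-binding protein, lay at -0.16 without overlap (edgeR, adjusted p = 0.137), and Ckap2l was at -0.003. Ube2c and Cdc20, which work with the anaphase-promoting complex, were at -0.11 and -0.10. Mki67, the source of the Ki-67 proliferation antigen, measured 697, 642 and 666 CPM in controls and 655, 623 and 693 CPM with 10panx1, and the groups overlapped. Its log2 fold change of -0.02 had a 95% interval from -0.13 to 0.08.

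The 95% intervals of all 36 members lay between log2 fold changes of -0.50, the lower bound of Cdc25c, and 0.24, the upper bound of Bub1. In linear terms these bounds are 0.708-fold and 1.18-fold. The standard errors of the log2 fold changes ran from 0.045 for Ccnb1 to 0.124 for Cdc25c.

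Other genes of the cell cycle give the setting, from lists made by role with earlier results of these data known. Of 55 other mitosis genes 5 were lower and 1 was higher, with a median log2 fold change of -0.09. Nek2, a centrosome kinase, went from 83.5 ± 4.73 to 68.9 ± 5.30 CPM (SD, n = 3 each; edgeR, adjusted p = 0.0162). Aspm, a spindle pole protein, differed by -0.33 (edgeR, adjusted p = 0.0215), and Cit, the citron kinase of cytokinesis, rose by 0.39 (edgeR, adjusted p = 0.01). Of 41 G1/S and DNA replication genes 8 were lower and none was higher, with a median of -0.12. Orc1 and Cdc6, which load the replicative helicase, differed by -0.46 and -0.40, and Ccne1, cyclin E1, by -0.36 (edgeR, adjusted p = 0.00793, 0.0152 and 0.0142). Among 17 cell cycle brakes, Gadd45a and Chek2 were lower by log2 fold changes of -0.44 and -0.37 (edgeR, adjusted p = 0.00564 and 0.0409). In either direction 10.9% of the other mitosis genes, 19.5% of the G1/S genes and 11.8% of the brakes were called. Of all tested genes 9.21% were called, 4.14% lower and 5.06% higher. Whether the members differ from these lists was not tested.

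**Figure D2:**
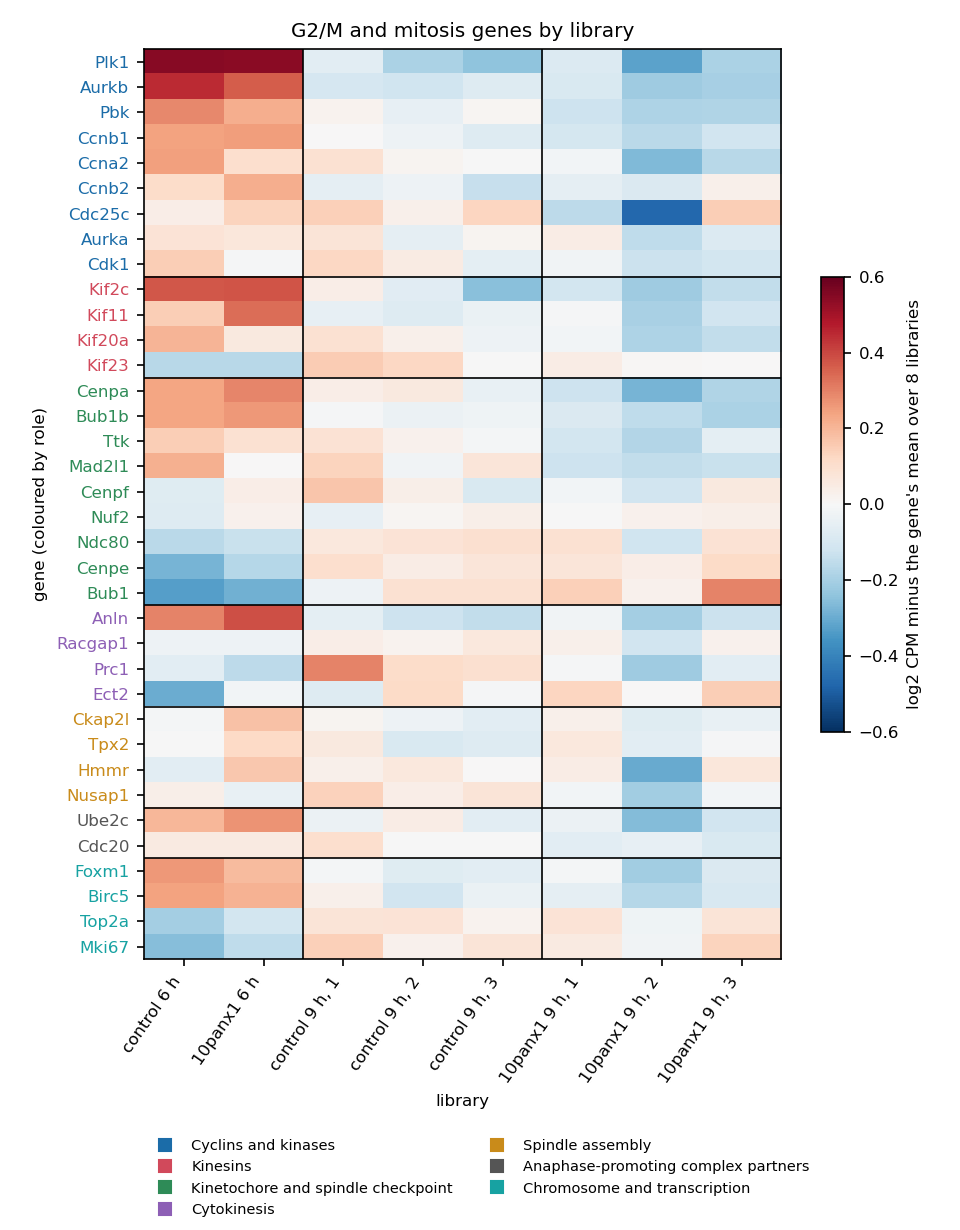
TMM-scaled CPM of each member in each library, as log2 difference from the gene's mean over 8 libraries (colour), with genes grouped by role and ordered within a role by the change from 6 h to 9 h. Plk1, Aurkb, Kif2c and Anln were higher in both libraries at 6 h, Bub1, Cenpe and Mki67 were lower there, and 10panx1 replicate 2 was the lowest library at 9 h in 27 of 36 members.

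The libraries at 6 h had no replicate, so the ratio of 10panx1 to control there has no test. The median log2 ratio of the members was 0.02, against -0.003 over 13445 genes, with 22 of 36 above 0. Ect2 had the highest ratio, 50.8 CPM in control and 61.6 CPM with 10panx1, a log2 ratio of 0.28. Mad2l1 had the lowest, 74.6 and 64.4 CPM, a log2 ratio of -0.21. Mad2l1 thus lay lower with 10panx1 at both times. Ect2 lay higher at both, with a log2 fold change of 0.08 at 9 h (edgeR, adjusted p = 0.468). Neither gene was called at 9 h. In all, 14 members were below 0 at both times, 6 above 0 at both, and 16 above 0 at 6 h and below 0 at 9 h. The G1/S genes had a median of -0.12 at 6 h, with 36 of 41 below 0.

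A dependence of the 10panx1 difference on time was tested as an interaction over all 8 libraries. No member was called, and neither was any of 15331 genes (0%) by edgeR or DESeq2, while 874 genes, 1 of them a member, had an unadjusted p under 0.05. That member was Cenpa, whose interaction on the log2 scale was -0.27 (edgeR, 95% interval -0.53 to -0.0001, adjusted p = 0.876). The members' median interaction was -0.09, with 31 of 36 below 0, against -0.01 over all genes. The single libraries at 6 h set how small an interaction this design could detect.

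The second comparison, 9 h against 6 h over both treatments, set 6 libraries against 2 with treatment as a covariate. The members split. Of 36, 17 were lower at 9 h and 7 were higher, and 12 were not called. The largest falls were in the kinases Plk1 and Aurkb and the kinesin Kif2c, while Bub1, Cenpe, Mki67, Top2a, Kif23, Ect2 and Ndc80 rose. Most of the transcriptome differed between the times, with 63.1% of 14315 genes called, 31.5% lower and 31.6% higher. The members' 24 of 36 (66.7%) is thus near the background. Time cannot be told apart here from any other difference between the libraries at 6 h and those at 9 h. The members' median log2 fold change was -0.11, against -0.001 over all tested genes.

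Cyclins and kinases were lower in 6 of 9 and higher in none. Plk1 measured 81.8 and 81.6 CPM in the control and 10panx1 libraries at 6 h, and at 9 h its lowest, median and highest of 6 libraries were 44.8, 49.1 and 53.7 CPM. No library at 9 h came near those at 6 h, and the level at 9 h was 60.7% of that at 6 h, a log2 fold change of -0.73 (edgeR, SE 0.066, adjusted p = 5.02e-08). Aurkb, the kinase of the chromosomal passenger complex, measured 123 and 116 CPM at 6 h and from 77.7 to 85.5 CPM at 9 h. Its log2 fold change was -0.54 (edgeR, adjusted p = 5.84e-08). Ccnb1, Ccnb2 and Ccna2, the mitotic cyclins, fell by 0.33, 0.22 and 0.23 on the log2 scale, and Pbk by 0.34. Their partner Cdk1 had a log2 fold change of -0.10 (edgeR, adjusted p = 0.114), and Aurka, the kinase of the spindle poles, was at -0.11 (edgeR, adjusted p = 0.119). Cdc25c was at -0.11 with a 95% interval from -0.38 to 0.16.

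**Figure D3:**
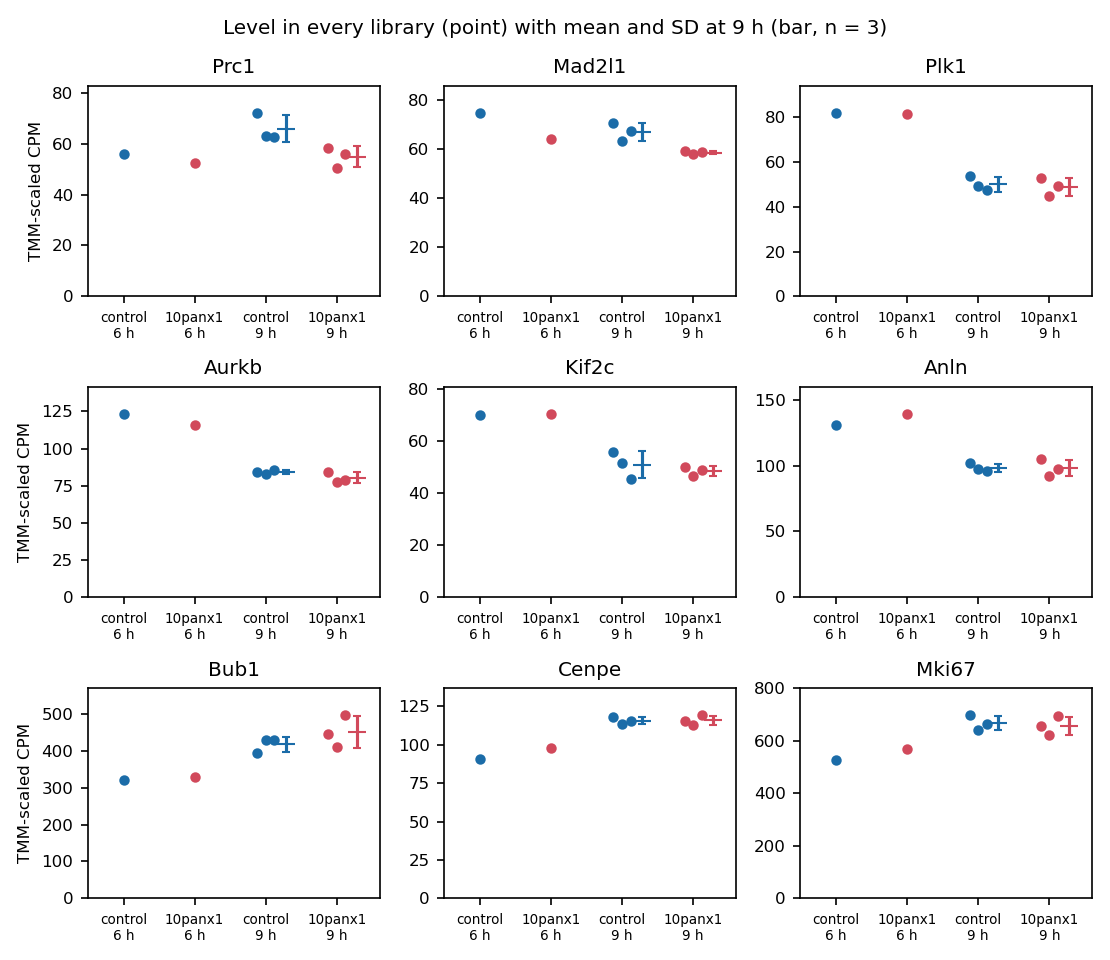
TMM-scaled CPM of 9 members in each library (points; blue control, red 10panx1), with mean and SD at 9 h (bars, n = 3 libraries per group). Prc1 and Mad2l1 separated the treatments at 9 h; Plk1, Aurkb, Kif2c and Anln were lower at 9 h than at 6 h, and Bub1, Cenpe and Mki67 were higher.

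All 4 kinesins were called, 3 lower and 1 higher. Kif2c, which takes microtubules apart at centromeres, measured 70.1 and 70.3 CPM at 6 h and from 45.4 to 55.7 CPM at 9 h, a log2 fold change of -0.50 (edgeR, SE 0.069, adjusted p = 6.97e-06). Kif11 fell by 0.33 and Kif20a by 0.18 on the log2 scale. Kif23, the motor of the centralspindlin complex, rose by 0.22 (edgeR, adjusted p = 0.00131), from 137 and 137 CPM at 6 h to between 153 and 171 CPM at 9 h. Its partner in centralspindlin, Racgap1, was not called, at 0.04 with a 95% interval from -0.07 to 0.14.

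Kinetochore and checkpoint genes went both ways, 4 lower and 3 higher of 9. Bub1 measured 320 and 330 CPM at 6 h and between 395 and 496 CPM at 9 h, where its level was 134% of that at 6 h. It rose by 0.41 on the log2 scale (edgeR, SE 0.061, adjusted p = 1.50e-05). Bub1b, its paralogue in the checkpoint complex, moved the other way, from 124 and 126 CPM to between 92.3 and 105 CPM, and fell by 0.33 on the log2 scale (edgeR, adjusted p = 2.14e-05). Cenpe, the kinesin that carries chromosomes to the spindle equator, measured 90.5 and 97.7 CPM at 6 h and from 113 to 119 CPM at 9 h, a log2 fold change of 0.29 (edgeR, adjusted p = 7.53e-05). Cenpa fell by 0.36, Ttk by 0.16 and Mad2l1 by 0.15 on the log2 scale. Ndc80 and Nuf2 form a dimer that grips microtubules, and they had estimates of 0.19 (edgeR, adjusted p = 0.0172) and 0.03 (edgeR, adjusted p = 0.691). Cenpf, a large outer kinetochore protein, was at 0.02 and not called.

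Of 4 cytokinesis genes, Anln fell and Ect2 rose. Anln measured 131 and 139 CPM at 6 h and from 92.2 to 105 CPM at 9 h, a log2 fold change of -0.46 (edgeR, SE 0.054, adjusted p = 1.1e-06). Ect2 measured 50.8 and 61.6 CPM at 6 h, the second of which lay within the range at 9 h of 59.1 to 69.2 CPM. Its log2 fold change was 0.20 (edgeR, adjusted p = 0.0154), and the call was lost without the control library at 6 h. Prc1 was at 0.15 (edgeR, adjusted p = 0.0892).

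None of the 4 spindle assembly genes was called. Ckap2l had the smallest p of them at -0.11 (edgeR, adjusted p = 0.108), with 61.5 and 70.0 CPM at 6 h and from 58.9 to 63.2 CPM at 9 h, which overlapped. Ube2c, the ubiquitin-conjugating enzyme of the anaphase-promoting complex, measured 168 and 176 CPM at 6 h and from 122 to 151 CPM at 9 h, a log2 fold change of -0.32 (edgeR, adjusted p = 0.000168). Cdc20 was at -0.08 and not called.

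Genes of chromosome structure and transcription split, 2 lower and 2 higher. Birc5, survivin, which brings Aurora B to the centromere, measured 82.8 and 80.9 CPM at 6 h and from 62.2 to 71.6 CPM at 9 h, a log2 fold change of -0.30 (edgeR, adjusted p = 0.000166). It fell alongside Aurkb, its partner in the same complex. Foxm1, the transcription factor of G2/M genes, also fell by 0.30 on the log2 scale (edgeR, adjusted p = 0.000386). Mki67 measured 528 and 568 CPM at 6 h and from 623 to 697 CPM at 9 h, a log2 fold change of 0.27 (edgeR, adjusted p = 0.000187). Top2a rose by 0.20 (edgeR, adjusted p = 0.0011).

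**Figure D4:**
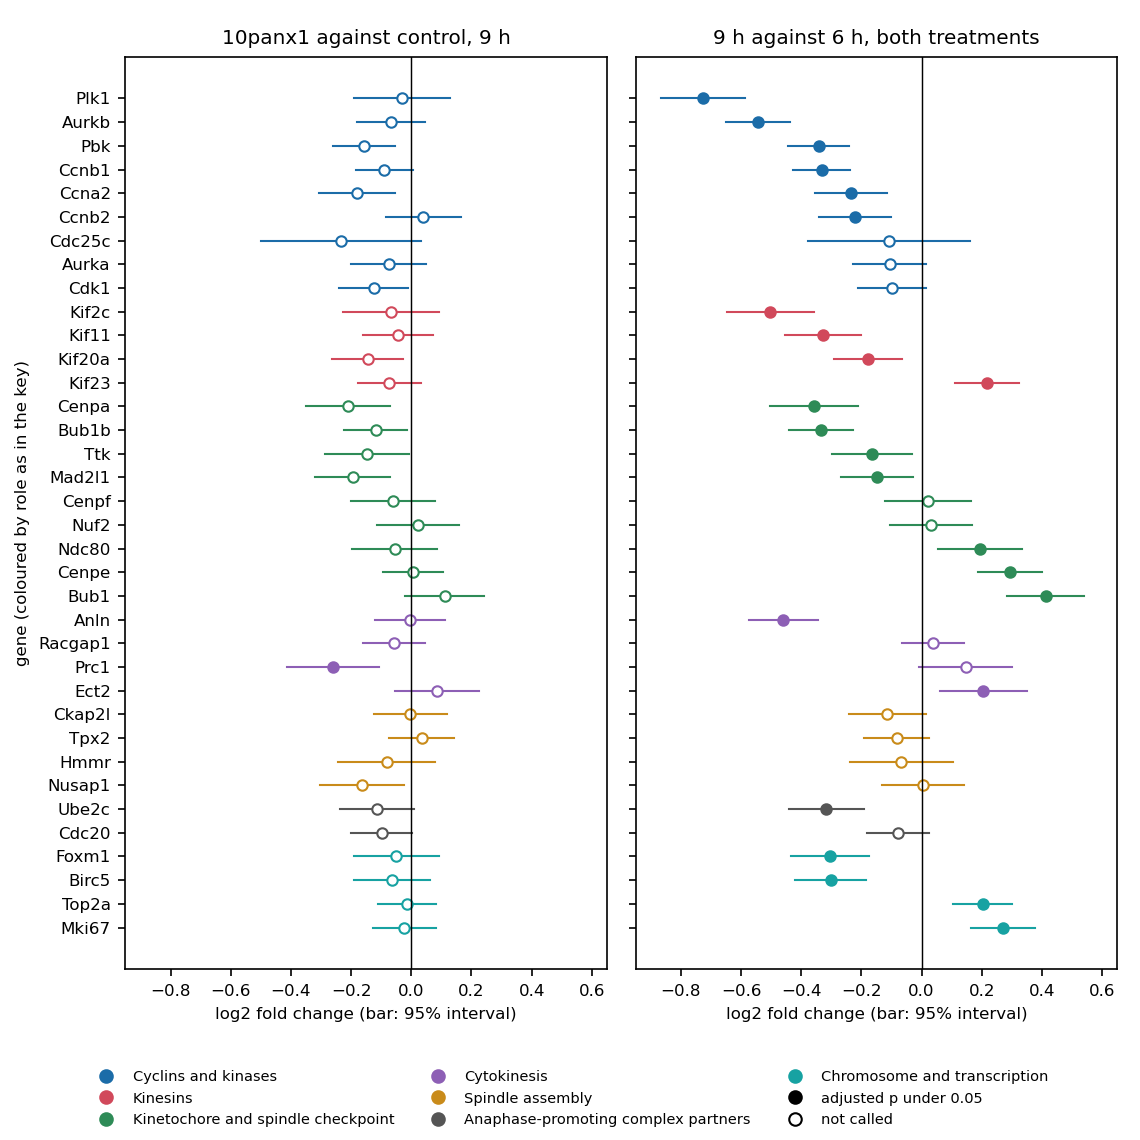
Log2 fold change (points) with 95% interval (bars) of the 36 members for 10panx1 against control at 9 h (left) and for 9 h against 6 h (right), coloured by role; filled points had an adjusted p under 0.05. At 9 h only Prc1 was called, while 17 members were lower and 7 higher at 9 h than at 6 h.

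Calls were compared over the alternatives. Of the 24 called members, 14 were called under each of 20 alternatives, and these were Plk1, Aurkb, Pbk, Ccnb1, Ccna2, Kif2c, Kif11, Bub1b, Anln, Ube2c, Birc5 and Foxm1 among the falls and Bub1 and Cenpe among the rises. No called member changed sign. On log2(TPM + 1), where the median of all tested genes itself lay at -0.11, 22 members were lower and 3 were higher, Bub1, Cenpe and Mki67, and the members' median was -0.21. Kif23, Ndc80, Ect2 and Top2a were not called on that scale, nor were they without the control library at 6 h. They were called with RLE and with upper quartile scaling of the counts, and the latter gave 7 higher and 22 lower members. The fit on TPM differs from that on counts in unit, filter and test, and which of these ended the 4 calls was not tested. Among the falls, Kif20a, Ttk and Mad2l1 were no longer called when either library at 6 h was left out, and Ccnb2 without the 10panx1 library at 6 h.

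Transcript length and GC content moved with these changes. The 7 members that rose had a median transcript length of 4086 bases and 42.9% GC, and the 17 that fell had 2965 bases and 48.4% GC. Over the 36 members the Spearman correlation of the log2 fold change with length was 0.43 and with GC content -0.52, against 0.07 and -0.06 over 14037 genes, given as a description over genes that share their libraries. With each library's trend in length and GC removed, an alternative added after the data were seen, 7 members were higher and 18 lower. These were not all the same genes. Prc1 was newly called higher, at 0.17 (edgeR, adjusted p = 0.0372), Cdk1 and Cenpf were newly called lower, and Ttk lost its call. The log2 fold change of Mki67 was then 0.05 instead of 0.27 and no longer called (edgeR, adjusted p = 0.342), and that of Cenpe was 0.15 instead of 0.29 and still called.

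The treatments were also fitted apart, each with 3 libraries at 9 h against a single library at 6 h that is assumed to vary like the others, so a change within a treatment has no replicate at 6 h. In control libraries alone 7 members were higher and 12 lower, where 48.4% of genes were called. In 10panx1 libraries alone 3 were higher and 14 lower, where 45.8% were called. Each of the 24 called members had the same sign in both. They were called on these same libraries together, which favours such agreement in advance, so it is no separate support. Over all 36 members 31 (86.1%) agreed in sign, near the 86.4% of 14005 genes tested in both, and the Spearman correlation across genes was 0.93 for members and 0.86 for all genes. The members' median log2 fold change was -0.09 in control and -0.19 in 10panx1 libraries.

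**Figure D5:**
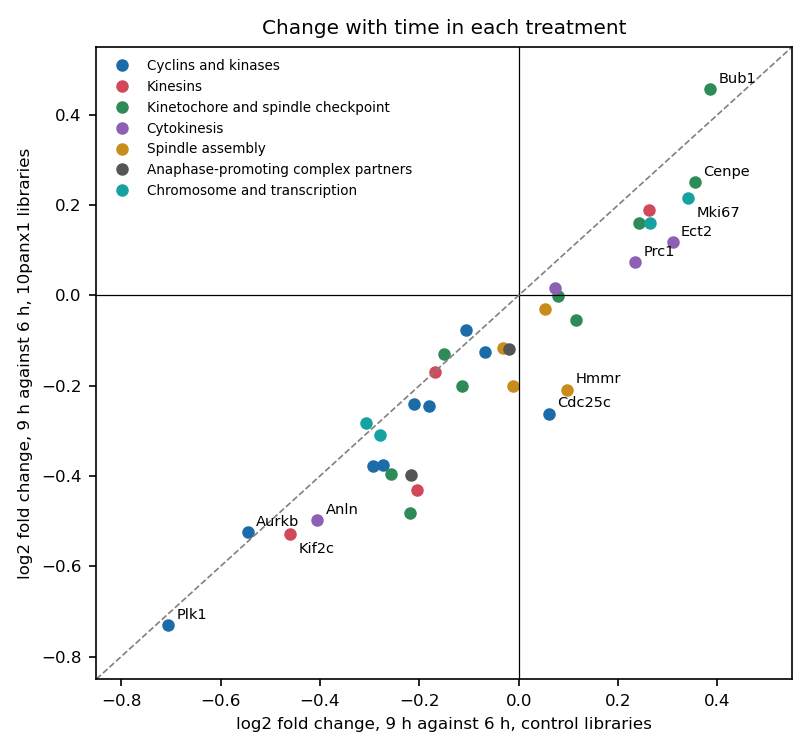
Log2 fold change of each member from 6 h to 9 h in control libraries (x axis) and in 10panx1 libraries (y axis), coloured by role, with the line of equal change dashed. Of 36 members 31 had the same sign in both, with Plk1 lowest and Bub1 highest in each.

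Genes around the members differed between the times as follows. In either direction 70.9% of the other mitosis genes, 56.1% of the G1/S genes and 70.6% of the brakes were called. Of all tested genes 63.1% were called, 31.5% lower and 31.6% higher. Of 55 other mitosis genes 33 were lower and 6 higher, with a median log2 fold change of -0.26. Ccnf, cyclin F, went from a mean of 72.3 CPM over the 2 libraries at 6 h to 33.3 ± 5.49 CPM over 6 libraries at 9 h (SD), a log2 fold change of -1.13 (edgeR, adjusted p = 1.67e-08). Knl1, the kinetochore scaffold on which Bub1 and Bub1b dock, and Lmnb1, lamin B1 of the nuclear envelope, had log2 fold changes of -0.84 and -0.58 (edgeR, adjusted p = 8.74e-09 and 5.02e-08). The G1/S genes were mixed, 15 lower and 8 higher of 41, with a median of -0.04, and among them Ccne2, Rrm2 and Tk1 fell by 0.93, 0.55 and 0.69 on the log2 scale. Of 17 brakes 6 were higher and 6 lower. Gadd45a, a growth arrest gene, went from 3.72 to 25.4 ± 4.62 CPM, Gadd45g from 3.63 to 20.8 ± 3.06 CPM and Btg1, an antiproliferative factor, from 113 to 287 ± 37.3 CPM (means over 2 libraries at 6 h and over 6 at 9 h, with SD), log2 fold changes of 2.77, 2.51 and 1.33 (edgeR, adjusted p = 1.17e-11, 2.94e-10 and 3.75e-09).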

How the data were processed

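Libraries were directional and made from poly(A) RNA of BV2 cells, as the labels' protocols state. The 2 deposited tables hold whole-number counts per gene, which the authors did not normalize, and TPM values, which the authors scaled per library. FastQC, Trimmomatic, STAR, featureCounts, DESeq2 and GRCm38 are named, per the submitters' processing notes. How the counting used strand is not given in the sources used here. Of 57010 rows, 151 repeats with identical values were dropped, and 56859 genes were left. No 2 replicates at 9 h were alike within counting noise (chi-square over its degrees of freedom 4.03 to 7.04).

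Deposited counts were tested over all genes with edgeR 4.0.16 (R 4.3.3, limma 3.58.1) by TMM scaling, filterByExpr, a two-sided quasi-likelihood test and an adjusted p (Benjamini-Hochberg) under 0.05. The fit at 9 h used 6 libraries; the fits of time (treatment as covariate) and of the interaction used 8. For ratios at 6 h the prior count was 2. Alternatives were DESeq2 1.42.0, limma-voom, RLE and upper quartile scaling, other filters, limma on log2 TPM (pseudocount 1 or 0.1, genes whose mean was 1 TPM or more), a replicate block, leaving out each library and, added after the data were seen, removal of length and GC trends (GENCODE M21). The scripts were tested on simulated counts. Motifs were searched on both strands of RefSeq promoters.

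The members and lists were chosen with earlier results of these data known. Levels are given as values per library or as ranges over libraries, not always at both times. They are given for the 3 called members with the smallest p per comparison and direction and the member with the smallest p of each role. The highest and lowest by mean TPM and the largest ratio each way at 6 h were added, with further members as examples. Up to 3 called genes per comparison were named from each other list. Tables and plots were made with pandas 2.3.3 and matplotlib 3.10.9 under Python 3.11.15.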

Additional observations from a re-analysis of the deposited data

How the results depend on the processing

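At 9 h the number of members called, 1 by edgeR, was 2 with DESeq2, with upper quartile scaling, with no filter and with the length and GC trend removed, 4 with a filter of at least 50 mean counts, 0 with limma on log2(TPM + 1) and 0 on log2(TPM + 0.1), and from 0 to 4 when each library was left out in turn. It was 0 without 10panx1 replicate 2 or 3 or control replicate 1 or 2, so Prc1 lost its call there, and 4 without 10panx1 replicate 1. Genes called over the whole table fell from 1233 to 368 and 371 with TPM and to between 598 and 841 without the libraries other than 10panx1 replicate 1. Every called member was lower. With the replicate number as a block 6 members and 1850 of 13392 genes were called, Prc1, Mad2l1, Ccna2, Cenpa, Pbk and Kif20a. The main fit used no block because no label says that a replicate number marks a shared culture or day. Libraries with the same number at 9 h had correlations of their deviations of 0.094, -0.0071 and 0.074. Those of libraries with unlike numbers ran from -0.112 to 0.0417. Whether the numbers pair the libraries was not tested. The median at 9 h ran from -0.096 to -0.034 when each library was left out. For 9 h against 6 h, between 17 and 29 members were called under the 20 alternatives against 24, and the median of -0.111 ran from -0.194 (without the control library at 6 h) to -0.0935 (without 10panx1 replicate 2 at 9 h) when each library was left out; it was -0.185 in 10panx1 and -0.0874 in control libraries alone, and -0.214 and -0.222 on log2(TPM + 1) and log2(TPM + 0.1), where all genes had medians of -0.109 and -0.118. Leaving out the control library at 6 h left 18 members called, 3 of them higher. No member had a called interaction under 12 alternatives, while 34 other genes did with no filter and 1 did without 10panx1 replicate 2 at 9 h. Where a setting changed a call, the cause was not tested. The single libraries at 6 h limit what the comparison with time can resolve.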
